A study of Mus musculus with 19 samples.

Results

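The heat shock chaperones described here are 10 genes, Hspa1a, Hspa1b, Hspa8, Dnajb1, Hsph1, Bag3, Hsp90aa1, Hspb1, Cryab and Hspb7, of 25239 gene symbols counted by RNA sequencing of mouse heart. They were chosen by name, on values that earlier work with these data had shown to be lower after LCWE in the Mcm8 knockout, so that comparison is given as a description and not as a test. The knockout (labelled Mcm8-Ko or Mcm8-/-) lacks Mcm8, which encodes a DNA helicase, and LCWE is the Lactobacillus casei cell wall extract used to model Kawasaki disease vasculitis in mice. Knockout hearts gave 5 libraries after LCWE and 3 after PBS, and wild-type hearts gave 6 after LCWE and 5 after PBS. The series set out to ask how MCM8 protects vessels. The labels do not state strain, sex, age, dose, time after injection or how the knockout allele was made. They also do not say that each library is a separate animal, so a p-value measures only the spread between libraries.

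Heat shock proteins keep other proteins folded. Hsp70 proteins bind unfolded stretches of a client, J-domain proteins such as DNAJB1 deliver the client and trigger ATP hydrolysis, and nucleotide exchange factors such as HSPH1 and BAG3 let it go. Hsp90 completes the folding of selected clients, and the small heat shock proteins hold unfolded proteins without using ATP. In heart muscle, HSPB1, CRYAB and HSPB7 guard sarcomere and cytoskeletal filaments, and BAG3 links Hsp70 and small heat shock proteins to the removal of damaged filament proteins. Many of these genes are induced by the transcription factor HSF1, which binds inverted repeats of the sequence GAA, the heat shock element.

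Total counts per library ranged from 11853233 to 16145911. Mcm8 lay between 0.130 and 0.910 CPM (counts scaled to library size by TMM) in the 8 knockout libraries, against 2.60 to 5.19 CPM in the 11 wild-type libraries, so every genotype label matched. The heart marker Myh6 was the most abundant gene, with a median of 50140 CPM. No pair of libraries agreed within sampling noise. All 10 chaperones passed the filter on low counts that left 14301 genes, and a gene is said to be called where its adjusted p in edgeR was under 0.05. These are bulk samples, in which fewer cells of a type and less RNA per cell cannot be told apart.

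The 10 genes differed widely in abundance. Per kilobase of exon and averaged over all 19 libraries, Cryab was highest at 1106 ± 197 CPM per kb (SD), and Hspb7 followed at 768 ± 200 CPM per kb. The constitutive Hsp70 gene Hspa8 had 372 ± 71.6 CPM per kb and the small heat shock gene Hspb1 350 ± 66.9 CPM per kb. Bag3 had 105 ± 43.8 and Hsp90aa1 32.6 ± 10.6 CPM per kb. The low end held Dnajb1 at 7.63, Hsph1 at 6.56, Hspa1b at 2.34 and Hspa1a at 1.89 CPM per kb. Most steps in this order held in 15 or more of the 19 libraries. Dnajb1 exceeded Hsph1 in 10 of 19 libraries and Hspa1b exceeded Hspa1a in 10 of 19, so neither of these neighbouring pairs was separated beyond the spread between libraries. The highest library had 35.8 times the lowest for Hspa1a and 30.7 times for Hspa1b, against 4.85 for Bag3, 4.30 for Hsph1 and 1.67 for Cryab.

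**Figure D1:**
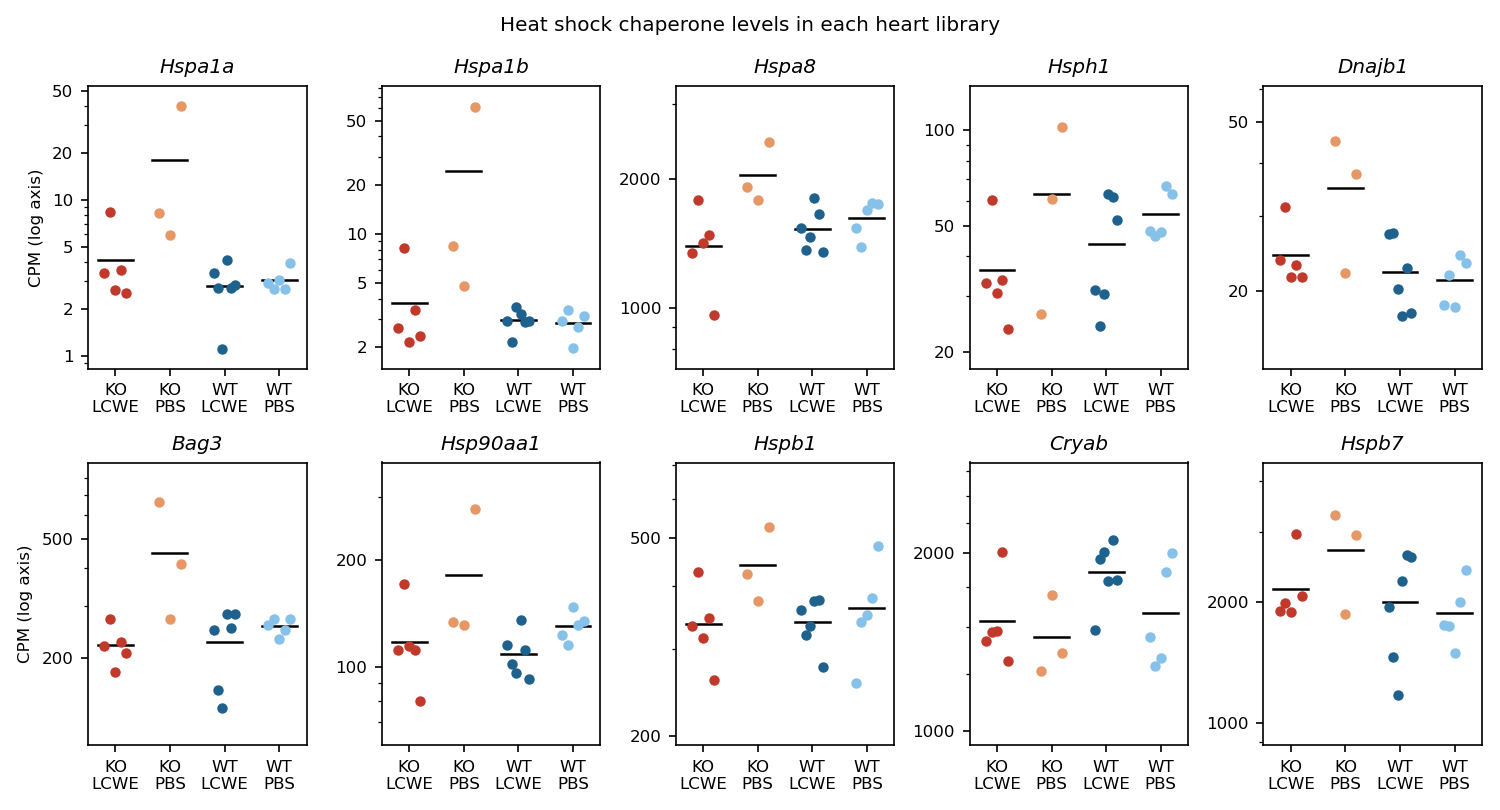
CPM of each chaperone (vertical log axes, a separate scale per gene) in each of 19 heart libraries, drawn as points by group, with horizontal bars for group means. The knockout PBS group has the highest mean for every gene but Cryab, and its 3 points are far apart for Hspa1a, Hspa1b, Hsph1 and Bag3.

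The inducible Hsp70 genes Hspa1a and Hspa1b showed the widest differences. They encode nearly the same protein from neighbouring, intron-less genes on chromosome 17 (Hspa1a chr17:34969190-34972156 and Hspa1b chr17:34956436-34959238, both on the minus strand of GRCm38), and are barely transcribed in unstressed tissue. Their promoters are shown because both genes were high in the same libraries. RefSeq windows (GRCm38.p6) from 250 bases before to 50 bases after the start site were at chr17:34972107-34972406 for Hspa1a and chr17:34959189-34959488 for Hspa1b, both on the minus strand. They are printed 5′ to 3′ in the direction of the gene, with matches to GAANNTTC or TTCNNGAA, the paired GAA unit of the heat shock element, in capitals:
Hspa1a: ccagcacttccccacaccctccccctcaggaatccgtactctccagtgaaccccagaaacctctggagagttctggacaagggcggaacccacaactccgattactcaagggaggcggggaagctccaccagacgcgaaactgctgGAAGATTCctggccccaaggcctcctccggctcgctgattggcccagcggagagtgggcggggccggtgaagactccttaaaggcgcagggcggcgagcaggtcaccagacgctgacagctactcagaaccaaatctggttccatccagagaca
Hspa1b: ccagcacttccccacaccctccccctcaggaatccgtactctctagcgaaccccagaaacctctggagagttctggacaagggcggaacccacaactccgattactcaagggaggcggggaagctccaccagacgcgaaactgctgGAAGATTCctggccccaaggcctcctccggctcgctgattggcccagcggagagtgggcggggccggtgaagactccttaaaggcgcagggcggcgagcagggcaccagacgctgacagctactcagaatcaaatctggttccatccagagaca
The windows differed at 4 bases (98.7% identical), and each held the match GAAGATTC, which starts 104 bases before the start site.

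Hspa1a stood at 3.40, 8.37, 2.62, 3.52 and 2.54 CPM in knockout LCWE hearts 1 to 5, against 8.19, 5.97 and 39.6 CPM in knockout PBS hearts 1 to 3. Wild-type LCWE hearts had 1.11 to 4.09 CPM (median 2.79) and wild-type PBS hearts 2.67, 2.68, 2.92, 3.04 and 3.93 CPM. All 3 knockout PBS hearts lay above every wild-type heart, and knockout PBS heart 3 lay far above everything else. Of the knockout LCWE hearts, heart 2 reached the level of knockout PBS heart 1, and the other 4 lay within the wild-type range.

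Hspa1b was likewise higher in all 3 knockout PBS hearts than in every wild-type heart. It had 2.63, 8.18, 2.17, 3.39 and 2.34 CPM in knockout LCWE hearts 1 to 5, against 8.47, 4.80 and 60.6 CPM in knockout PBS hearts 1 to 3. The 11 wild-type hearts lay between 1.98 and 3.57 CPM. Knockout PBS heart 3 carried 805 Hspa1b counts, whereas the wild-type hearts carried 26 to 55. Of all 50-base windows in the Hspa1a transcripts, 58.81% also occur in Hspa1b, so how reads were divided between the genes is uncertain. Both genes were at their highest in knockout PBS heart 3.

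Hspa8, the constitutive Hsp70 that serves most cells at rest, varied less. It had 961 to 1785 CPM (median 1417) in knockout LCWE hearts, against 1917, 1786 and 2449 CPM in knockout PBS hearts. Wild-type LCWE hearts had 1352 to 1804 CPM and wild-type PBS hearts 1389 to 1762 CPM. The knockout groups did not overlap, but knockout LCWE heart 2 and knockout PBS heart 2, at 1785 and 1786 CPM, were almost level. Of the Hspa8 windows, 34.58% also occur in the processed pseudogene Gm15459, which adds to the uncertainty of its level.

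The co-chaperones parted company. Dnajb1 (chr8:83608193-83612653, plus strand), the J-domain partner of inducible Hsp70, had 23.6, 31.5, 21.5, 23.0 and 21.5 CPM in knockout LCWE hearts 1 to 5, against 45.1, 22.0 and 37.7 CPM in knockout PBS hearts 1 to 3. Wild-type LCWE hearts had 17.5 to 27.4 CPM and wild-type PBS hearts 18.2 to 24.2 CPM. Knockout PBS hearts 1 and 3 lay above all other libraries, and knockout PBS heart 2 lay within the wild-type range.

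Bag3, the co-chaperone of Hsp70 and the small heat shock proteins in muscle, followed Dnajb1 in the knockout PBS hearts. It had 220, 270, 180, 226 and 208 CPM in knockout LCWE hearts 1 to 5, against 666, 271 and 411 CPM in knockout PBS hearts 1 to 3. Wild-type LCWE hearts had 137.2 to 281 CPM (median 251) and wild-type PBS hearts 233 to 271 CPM. Knockout PBS hearts 1 and 3 were again the highest 2 libraries, while heart 2 equalled the highest wild-type PBS heart. Over all 19 libraries, Bag3 and Dnajb1 had a Pearson r of 0.59 but a rank correlation (Spearman) of 0.13.

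Hsph1, the Hsp110 exchange factor that works with Hsp70 on protein aggregates, split differently. It had 33.0, 60.4, 30.8, 33.7 and 23.7 CPM in knockout LCWE hearts 1 to 5, against 26.3, 60.6 and 102 CPM in knockout PBS hearts 1 to 3. Wild-type LCWE hearts had 31.4, 24.2, 30.5, 62.9, 61.7 and 52.2 CPM (1 to 6), against 48.0, 46.5, 47.7, 66.9 and 62.7 CPM in wild-type PBS hearts 1 to 5. No library lay between 33.7 and 46.5 CPM. The low side held 4 of 5 knockout LCWE hearts, 1 of 3 knockout PBS hearts, 3 of 6 wild-type LCWE hearts and no wild-type PBS heart. Knockout PBS heart 1, among the highest for Dnajb1 and Bag3, was on the low side for Hsph1.

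Because Bag3 and Hsph1 were each extreme in different knockout PBS hearts, their promoter windows are set side by side. RefSeq places Bag3 at chr7:128523333-128523632 on the plus strand and the first Hsph1 window at chr5:149636287-149636586 on the minus strand (a second Hsph1 window, shifted by 21 bases, holds the same matches). Capitals mark the same motifs:
Bag3: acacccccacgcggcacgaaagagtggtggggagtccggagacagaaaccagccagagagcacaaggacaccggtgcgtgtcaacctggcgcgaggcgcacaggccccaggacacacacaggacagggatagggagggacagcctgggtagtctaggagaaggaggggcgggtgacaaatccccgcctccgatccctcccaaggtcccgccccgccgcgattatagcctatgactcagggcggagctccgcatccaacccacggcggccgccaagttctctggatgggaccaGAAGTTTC
Hsph1: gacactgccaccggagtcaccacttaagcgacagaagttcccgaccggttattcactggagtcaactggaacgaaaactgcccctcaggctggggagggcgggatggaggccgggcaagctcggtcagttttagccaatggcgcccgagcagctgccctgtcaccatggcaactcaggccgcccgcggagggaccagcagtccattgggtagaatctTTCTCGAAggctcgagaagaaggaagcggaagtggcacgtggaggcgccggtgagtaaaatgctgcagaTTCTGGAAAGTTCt
Bag3 had 1 match, 43 bases after the start site. Hsph1 had 3 matches, of which a pair overlap to form the 3-unit run TTCTGGAAAGTTC. Windows were found for 7 of the 10 genes, and 5 of them, those of Hspa1a, Hspa1b, Hspb1, Hsph1 and Bag3, held a match, while those of Dnajb1 and Hspb7 held none. Over all 32851 RefSeq mouse windows of this length, 15.06% held a 2-unit match on either strand and 0.603% a 3-unit run. A match describes the letters of the window only.

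Hsp90aa1, the inducible cytosolic Hsp90, came closest to Hspa8. It had 111, 171, 114, 111 and 80.2 CPM in knockout LCWE hearts 1 to 5, against 133, 131 and 278 CPM in knockout PBS hearts 1 to 3. Wild-type LCWE hearts had 92.5 to 135 CPM and wild-type PBS hearts 115 to 147 CPM. Only knockout PBS heart 3 and knockout LCWE heart 2 exceeded the wild-type range. Of its windows, 41.79% also occur in the transcribed pseudogene Gm12346.

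Among the small heat shock proteins, Cryab varied least between libraries and Hspb7 most. Hspb1 had 259 to 427 CPM in knockout LCWE hearts, against 424, 373 and 525 CPM in knockout PBS hearts, and 256 to 482 CPM over the wild-type hearts. Cryab, the αB-crystallin gene, had 1315 to 2011 CPM in knockout LCWE hearts, against 1264, 1702 and 1356 CPM in knockout PBS hearts, and 1289 to 2106 CPM in wild type. Hspb7, a small heat shock protein of heart muscle, had 1892 to 2954 CPM in knockout LCWE hearts, against 3300, 1868 and 2937 CPM in knockout PBS hearts, and 1178 to 2617 CPM in wild type. Knockout PBS hearts 1 and 3 were high for Hspb7, but so was knockout LCWE heart 4, at 2954 CPM. Cryab overlapped in all groups. Of the Hspb1 windows, 48.83% also occur in the pseudogene Hsp25-ps1.

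**Figure D2:**
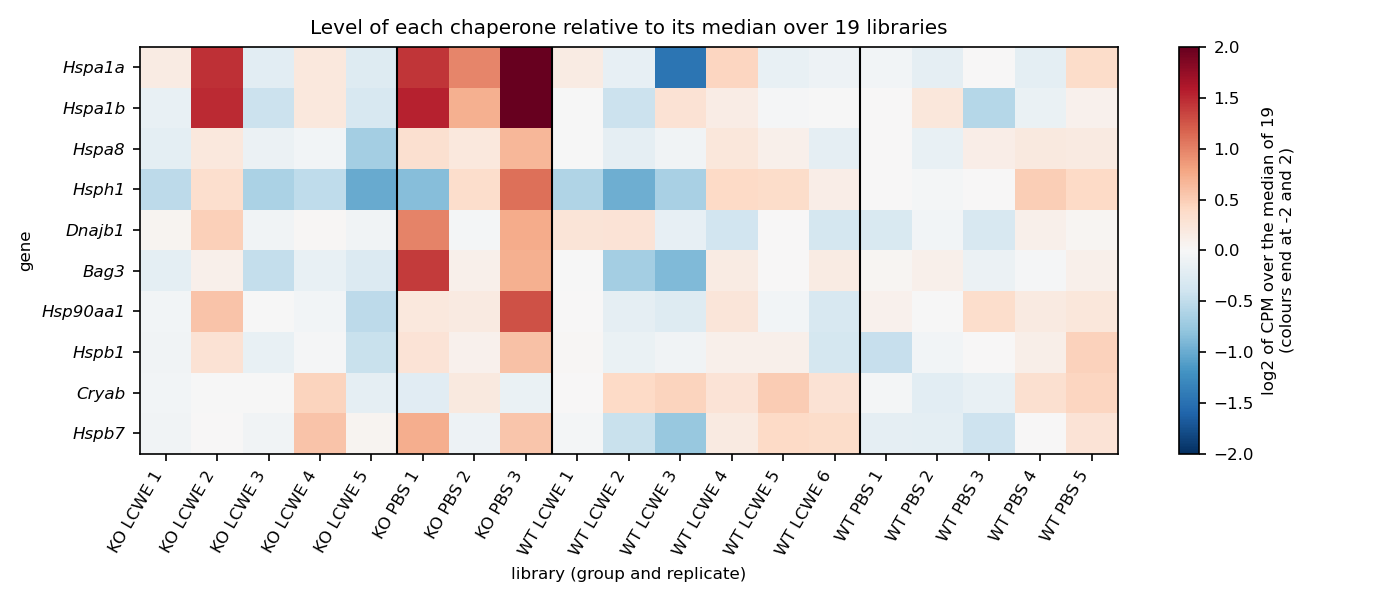
Colour shows the log2 ratio of each gene's CPM to its median over 19 libraries (rows, genes; columns, libraries by group and replicate; scale ends at -2 and 2). Knockout PBS heart 3 is red in all rows but Cryab. Knockout PBS heart 1 is red for Hspa1a, Hspa1b, Dnajb1, Bag3 and Hspb7 but blue for Hsph1, and knockout LCWE heart 2 is red for Hspa1a and Hspa1b.

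The map of relative levels shows which genes were high in the same libraries. Over the 19 libraries, log2 CPM of Hspa1a and Hspa1b had a Pearson r of 0.90, or 0.72 without knockout PBS heart 3. Hspa8 had an r of 0.88 with Hsp90aa1 and 0.83 with Hspb1, and Bag3 had 0.75 with Hspb7. Cryab had values of -0.42 to 0.14 with the other 9 genes, and Dnajb1 with Hsph1 had -0.03. These are descriptions over libraries that share groups, depth and preparation.

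In the knockout, 9 of the 10 chaperones had lower fitted levels after LCWE than after PBS, with a median log2 fold change of -0.59, against 0.01 over all 14301 genes. Hspa1b was lower by a log2 fold change of -2.71 ± 0.57 (SE), Hspa1a by -2.12 ± 0.49 and Bag3 by -1.02 ± 0.24, and these 3 were called lower (2.08% of all genes were called lower). The other 7 were not called. Hsph1 had -0.79 ± 0.38, Hsp90aa1 -0.62 ± 0.22, Hspa8 -0.55 ± 0.16, Dnajb1 -0.53 ± 0.20, Hspb1 -0.39 ± 0.18, Hspb7 -0.32 ± 0.24 and Cryab 0.09 ± 0.17. Hspa8 and Bag3 were the members whose groups did not overlap, against 3.7% of all genes lower without overlap. Both gaps were narrow. Knockout LCWE heart 2 and knockout PBS heart 2 had 270 and 271 CPM of Bag3, and 1785 and 1786 CPM of Hspa8. Members were chosen with this comparison known, so nothing is read from the counts of members called or not overlapping.

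**Figure D3:**
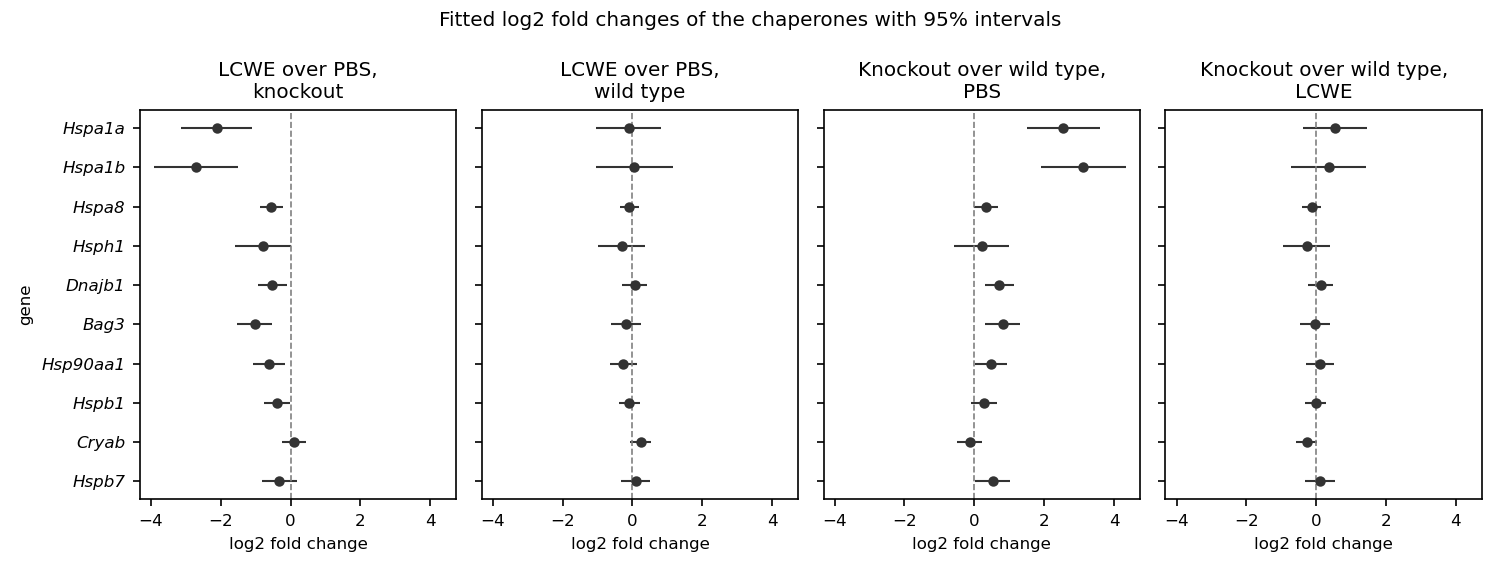
Fitted log2 fold changes (points, horizontal axis) with 95% intervals (bars) for the 10 chaperones in 4 comparisons. Hspa1a and Hspa1b lie far from 0 in the comparisons that include knockout PBS hearts (LCWE over PBS in the knockout, and knockout over wild type under PBS), while all 10 intervals cover 0 in wild type and in knockout over wild type under LCWE.

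Knockout against wild type under PBS rests on the same 3 knockout PBS hearts and is likewise a description. Of the 10 chaperones, 9 were above 0, with a median of 0.50 against 0.00 over all genes. Hspa1b had 3.12 ± 0.58 and Hspa1a 2.55 ± 0.50, and these 2 were called higher (0.524% of all genes were called higher). Bag3 had 0.81 ± 0.24, Dnajb1 0.72 ± 0.20, Hspb7 0.52 ± 0.24 and Hsp90aa1 0.48 ± 0.22. Hspa8 had 0.33 ± 0.16, Hspb1 0.29 ± 0.18, Hsph1 0.21 ± 0.38 and Cryab -0.14 ± 0.17. Hspa1a, Hspa1b and Hspa8 did not overlap between the groups, against 4.1% of all genes higher without overlap.

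The values in both comparisons moved with the knockout PBS hearts included. Without knockout PBS heart 3, the log2 fold change after LCWE in the knockout was -0.79 for Hspa1a, -0.82 for Hspa1b and -0.17 for Hsp90aa1, while Bag3 stayed at -1.08, and 0 of the 10 were called. Without knockout PBS heart 1, Bag3 had -0.63 and Dnajb1 -0.30, Hspa1b had -3.12, and 0 of the 10 and 1 gene in all were called. Without knockout PBS heart 2, 6 of the 10 were called (Hspa1a, Hspa1b, Hspa8, Dnajb1, Hsp90aa1 and Bag3), with 2935 of all genes. With hearts 1 and 3 both left out, Hspa1a had -0.54 ± 0.53, Hspa1b -0.36 ± 0.51, Bag3 -0.30 ± 0.30 and Dnajb1 0.14 ± 0.25, and 0 were called. Of the knockout LCWE hearts, leaving out heart 2 raised the calls to 5 of 10, adding Hspa8 and Hsp90aa1. The call of Hspa1a was lost without knockout LCWE heart 4, and all 3 calls were lost without knockout LCWE heart 1, 3 or 5, at log2 fold changes of -2.06 to -2.0 for Hspa1a. Under PBS, the calls of Hspa1a and Hspa1b in knockout against wild type were lost without knockout PBS heart 1 or 3, any of the wild-type PBS hearts or wild-type LCWE heart 5. Without knockout PBS heart 3, Hspa1a had 1.21 and Hspa1b 1.23 in that comparison. Without any other of these hearts the folds stayed large, at 2.51 to 2.90 for Hspa1a and 3.02 to 3.53 for Hspa1b.

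**Figure D4:**
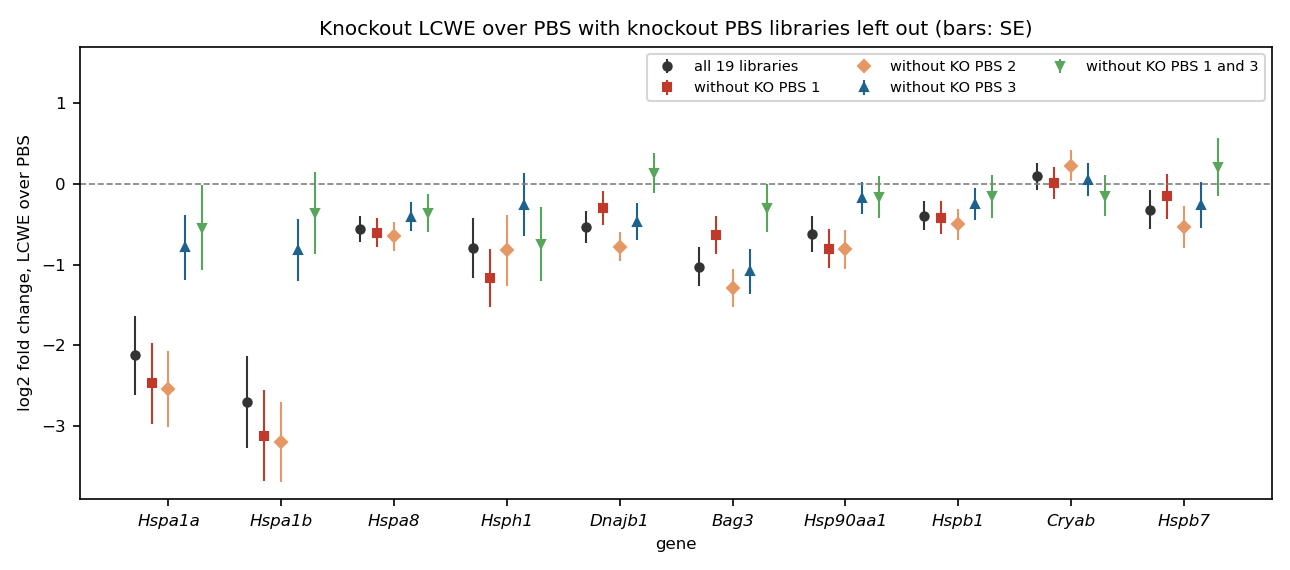
Log2 fold change of LCWE over PBS in the knockout (vertical axis, bars SE) for each chaperone, with all 19 libraries and with knockout PBS hearts left out. Hspa1a and Hspa1b lie between -0.82 and -0.36 whenever heart 3 is left out, and Bag3 lies nearer 0 when heart 1 is left out.

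Other measures set the same libraries apart. The sum of 10 macrophage markers was 467 to 1406 CPM in knockout LCWE hearts, against 204, 479 and 182 CPM in knockout PBS hearts 1 to 3. Hearts 1 and 3, the highest for Dnajb1 and Bag3, were thus the lowest for macrophage markers. Heart 1 was not high for every chaperone, being on the low side for Hsph1 and the lowest library for Cryab. The sum of 8 fibroblast markers was 1166 to 2105 CPM after LCWE against 1018, 1288 and 937 CPM after PBS. The sum of 14 cardiomyocyte markers was 109031 to 138291 CPM after LCWE and 102409 to 125444 CPM after PBS. The sum of 7 neutrophil markers was 5.18 to 94.3 CPM after LCWE and 2.87 to 4.18 CPM after PBS, although the defining marker Ly6g was under 1 CPM in every library. The sum of 8 T and NK cell markers was 4.72 to 9.22 CPM after LCWE and 1.19 to 4.80 CPM after PBS, with Cd3d and Cd3g under 1 CPM throughout. The part of cell composition in the chaperone differences was not tested. Knockout LCWE heart 2 held neither an X-inactivation transcript nor a Y-linked one at 1 CPM (Xist 0.649 and Ddx3y 0.454 CPM), whereas each of the other 18 libraries held 39.8 CPM or more of Xist or Ddx3y. Markers of sex were unevenly spread over the groups. The Y-linked Ddx3y reached 1 CPM in 3 of 5 knockout LCWE hearts, 1 of 3 knockout PBS hearts (heart 1), 1 of 6 wild-type LCWE hearts and 0 of 5 wild-type PBS hearts. Its part in the chaperone differences was not tested.

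In wild type, LCWE against PBS compares none of the libraries of the knockout comparison, and here the chaperones were tested. The spread was estimated in 1 fit of all 19 libraries, knockout hearts included. The errors, intervals and p-values are therefore not those of wild-type hearts alone. None of the 10 was called in edgeR (0% of all 14301 genes were called), with adjusted p from 0.816 to 0.992. At an unadjusted p under 0.05 edgeR found 0 of the 10 and 892 of all genes, while DESeq2 called 0 of the 10 and 1 gene and limma-voom 0 of both. Hspa1a had a log2 fold change of -0.11 (95% interval -1.04 to 0.83), Hspa1b 0.05 (-1.04 to 1.15) and Bag3 -0.18 (-0.60 to 0.24). Hspa8 had -0.09 (-0.37 to 0.19), Hsp90aa1 -0.26 (-0.65 to 0.13) and Hsph1 -0.31 (-0.97 to 0.35). Cryab had 0.23 (-0.06 to 0.52), Hspb7 0.09 (-0.33 to 0.51), Dnajb1 0.06 (-0.29 to 0.42) and Hspb1 -0.09 (-0.40 to 0.22). Of the 10 estimates, 6 lay below 0 and 4 above. Changes of any size inside these intervals lie within the error of the estimates.

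Knockout against wild type under LCWE reuses the knockout LCWE hearts on which the members were chosen, so it is a description too, and 0 of 10 were called in edgeR. Over all genes 0.00699% were called, which is the 1 gene Mcm8. At an unadjusted p under 0.05 edgeR found 0 of the 10 and 794 genes, and DESeq2 called 0 of the 10 and 8 genes. The largest member differences were Hspa1a at 0.54 (-0.38 to 1.46), Hspa1b at 0.36 (-0.71 to 1.43) and Cryab at -0.27 (-0.57 to 0.02). Without knockout LCWE heart 2, Hspa1b had -0.14. The difference of the LCWE effect between genotypes was below 0 for all 10 chaperones with all libraries, but 0 were called (0% of all genes), with 5 of the 10 and 1145 of all genes at an unadjusted p under 0.05 in edgeR and 5 genes, none a member, called by DESeq2. It shares the knockout hearts and is a description. Its direction turned for Hsph1, to 0.095 ± 0.49 when the range of sample numbers entered as a covariate and 0.059 ± 0.49 without knockout PBS heart 3, and for Hsp90aa1, to 0.097 ± 0.25 without that heart.

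The sample numbers in the labels fall into ranges, and the wild-type LCWE hearts differed between ranges in Hsph1. Among wild-type hearts numbered from 100 to under 200, Hsph1 had 31.4, 24.2 and 30.5 CPM after LCWE (hearts 1 to 3), against 48.0, 46.5, 47.7 and 66.9 CPM after PBS (hearts 1 to 4). The wild-type LCWE hearts with other numbers had 62.9, 61.7 and 52.2 CPM. The range was picked out once these values had been seen, so its result is a description. Hsph1 had a log2 fold change of -0.90 ± 0.23 there and was the 1 of 10 members called in edgeR (3.07% of 14747 genes were called lower, and 8.28% in either direction). The call was lost on leaving out any of the 4 PBS hearts or LCWE heart 2 or 3, while the log2 fold change stayed between -0.95 and -0.76. The Hsp110 relative Hspa4l, chosen because its levels were like those of Hsph1, had 33.5, 24.7 and 29.7 CPM after LCWE against 40.2, 39.9, 37.4 and 44.9 CPM after PBS, a log2 fold change of -0.50 ± 0.13 given without a test. The ribosomal RNA gene Rn45s was high in these LCWE hearts, at 2374, 1841 and 1257 CPM against 489 to 719 CPM in the 4 PBS hearts, and its part in the Hsph1 difference was not tested.

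**Figure D5:**
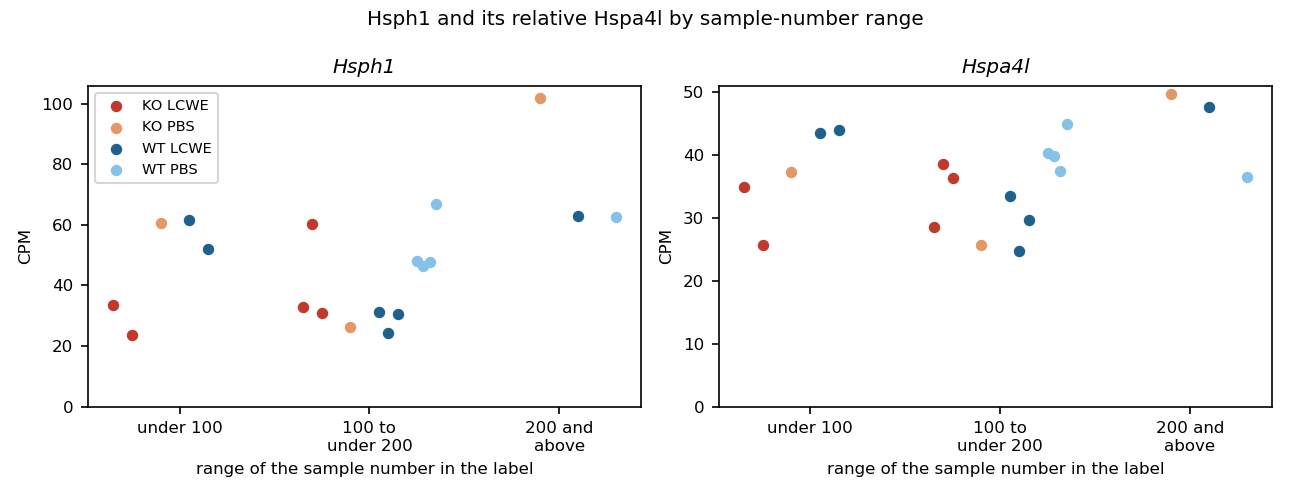
CPM (vertical axis) of Hsph1 and its relative Hspa4l in each library, by sample-number range, with points coloured by group. From 100 to under 200, the 3 wild-type LCWE hearts (24.2 to 31.4 CPM of Hsph1) lie below the 4 wild-type PBS hearts (46.5 to 66.9 CPM), and knockout LCWE heart 2 is the high red point at 60.4 CPM.

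The plot by sample number also shows how few knockout PBS hearts each range holds. From 100 to under 200 only knockout PBS heart 1 remains. The log2 fold change after LCWE was -1.58 ± 0.27 for Bag3, -0.83 ± 0.23 for Dnajb1 and -0.78 ± 0.23 for Hspb7, but 0.65 ± 0.36 for Hsph1. In that range Hspa1b had -0.97 ± 0.56 and Hspa1a -0.77 ± 0.56. Under 100 only knockout PBS heart 2 remains, and Hsph1 had -1.08 ± 0.22, Hspa1a -0.97 ± 0.36 and Bag3 -0.31 ± 0.17. These fits differ in their knockout LCWE hearts too, and each has 1 knockout PBS heart. With all ranges included and any single library left out, Hsph1 stayed between -1.16 and -0.26. From 200 upward there is no knockout LCWE heart, so heart 3 could be compared with none. With the range as a covariate, Hspa1b had -1.71 ± 0.56, Hspa1a -1.34 ± 0.43 and Bag3 -0.99 ± 0.26 in the knockout, and 0 of 10 were called.

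Few other heat shock genes were called. The lists were drawn up with earlier results known, and counts below are of genes called after LCWE in the knockout, a description beside 2.9% of all genes called in either direction. Of 37 J-domain genes tested, 2 were lower, Dnajb4 at a log2 fold change of -0.62 ± 0.15 and Dnajc3, the endoplasmic reticulum J-protein, at -0.84 ± 0.19. Of 7 small heat shock genes tested, 1 was lower, Hspb8, the partner of BAG3 in muscle protein clearance, at -0.51 ± 0.12. Dnajb4 had 54.7 to 81.6 CPM in knockout LCWE hearts against 127, 77.6 and 107.3 CPM in knockout PBS hearts, and Hspb8 375 to 487 CPM against 606, 562 and 632 CPM. Hspb8 thus did not overlap and was high in all 3 knockout PBS hearts, heart 2 included. Hspa12a, a distant Hsp70 relative, was called higher at 0.83 ± 0.22.

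No gene was called among 4 Hsp90 genes, 10 chaperonin genes, 18 Hsp90 and Hsp70 co-chaperones and 5 heat shock factors and regulators. The chaperonins, the barrel-shaped folding machines of cytosol and mitochondria, had a median of 0.03. Hsf1 had -0.20 ± 0.12 and Hsf2 -0.22 ± 0.17, the abundant constitutive Hsp90 gene Hsp90ab1 -0.32 ± 0.14, and mitochondrial Hspd1 -0.08 ± 0.17. Of 23 further HSF1 targets, 2 were lower (Dnajb4 and Hspb8), with a median of -0.09. Under PBS in knockout against wild type, 1 J-domain gene (Dnajc3, 0.83 ± 0.19) and no other gene outside the members was called in these chaperone lists. In wild type after LCWE, and in knockout against wild type under LCWE, 0 genes of these lists were called.

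The genes most like the chaperones, by Pearson correlation with the mean of their standardised log2 CPM over 19 libraries, were Nus1 (r = 0.95), Banp (0.93), Dok7 (0.90), Xbp1 (0.87), Zfp142 (0.87) and Hyou1 (0.86), followed by Pgam1, Urgcp, 6430548M08Rik and C2cd2 at 0.84 to 0.86. Xbp1, a transcription factor of the unfolded protein response, and Hyou1, an Hsp70 relative of the endoplasmic reticulum, lie outside the cytosolic heat shock system. Their rank correlations (Spearman) were 0.70 and 0.73, against 0.78 to 0.92 for the others of these 10. Xbp1 had 51.8 to 80.6 CPM in knockout LCWE hearts, against 73.4, 61.2 and 126 CPM in knockout PBS hearts. After removal of group means, 7 of these 10 stayed among the first 10, and Grk5, Amt and Thap2 entered.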

How the data were processed

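RNA sequencing of heart was analysed in 19 libraries in 4 groups taken from the genotype and treatment labels. Replicates are numbered in accession order, which pairs nothing. The deposited table holds raw gene counts (whole numbers, not normalized) under gene symbols. Per the labels' protocols, cDNA made from total RNA was preamplified with a whole transcriptome amplification kit. The submitters' processing notes name STAR 2.7.8a, limma 3.36.160 and the genome build GRCm38. How reads were counted, on which annotation and with or without strand, is not given in the sources used here. All columns were matched to samples, and 0 columns of other samples were used.

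Genes were kept by filterByExpr (minimum count 10, minimum total 15). Libraries were scaled by TMM and fitted by the robust quasi-likelihood test of edgeR 4.0.16 in R 4.3.3, with all groups in 1 fit and no covariates. P-values were adjusted by Benjamini-Hochberg across every gene tested, with a threshold of 0.05. CPM are scaled by TMM, and CPM per kb uses the exon length of GENCODE M21. Log2 CPM used a prior count of 2. The procedure was tested on simulated counts. Alternatives were DESeq2 1.42.0, limma-voom (limma 3.58.1), other scalings and filters, a fit that is not robust, only the groups compared, the sample-number range as a covariate, and each library left out. 4 restrictions to fewer libraries were added after the data were seen.

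The members and the gene lists were chosen with earlier results of these data known. LCWE against PBS in the knockout, and the 3 comparisons that reuse knockout libraries, are therefore descriptions. Named genes are the members, Mcm8, up to 4 called genes per list at a mean of at least 5 CPM (up to 2 as values where none was called), the 10 genes most correlated with the members, and a fixed set as values (Hsf1, Hsf2, Hspd1, Hsp90ab1, Myh6 and others). Hspa4l, Rn45s, Xist and Ddx3y were chosen after their values were seen. Not every gene the rule allows is named, and 1 result is not reported here. Promoter sequences are those of RefSeq on GRCm38.p6. Counting error alone is small above 100 counts, and Hspa1a and Hspa1b rested on 13 to 55 counts in wild-type hearts.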

Additional observations from a re-analysis of the deposited data

Results flagged for a closer look

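Of 30 sets of values tested for a stray library (each chaperone in each group of 4 or more libraries), 6 had a highest value far from the others. Chance alone flags about 1 in 20 such sets. The sets share libraries and several chaperones rise together in them, so the number of flags cannot be set against that rate. All 6 flags fall on knockout LCWE hearts 2 and 4. In knockout LCWE hearts, heart 2 stood apart for 4 chaperones. It had 8.37 CPM of Hspa1a (next highest 3.52), 8.18 CPM of Hspa1b (next highest 3.39), 60.4 CPM of Hsph1 (next highest 33.7) and 31.5 CPM of Dnajb1 (next highest 23.6). It is the library without Xist or Ddx3y at 1 CPM. Knockout LCWE heart 4 stood apart for 2 small heat shock genes, with 2011 CPM of Cryab (next highest 1476) and 2954 CPM of Hspb7 (next highest 2076). It also had the highest macrophage marker sum, 1406 CPM, and a cardiomyocyte marker sum of 109031 CPM, the lowest of its group. The part of these measures in the flags was not tested.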

How the results depend on the processing

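In the knockout, the counts after LCWE (3 chaperones and 415 genes called) depended on the setting. Library totals alone gave 229 genes, the sample-number range as a covariate 0 chaperones and 116 genes, DESeq2 1260 genes, limma-voom 0 and 113, and the groups compared alone 0 and 0. Knockout PBS hearts 1 and 3 left out gave 0 and 1, knockout PBS heart 3 with LCWE heart 2 left out 1 and 69, numbers from 100 to under 200 gave 4001 genes, and numbers under 100 gave 0 and 19. Leaving out single libraries gave 0 to 6 chaperones and 1 to 2935 genes.

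For knockout against wild type under PBS (2 chaperones, 86 genes), library totals gave 1 and 21, the range covariate 524 genes, DESeq2 4 and 699, limma-voom 0 and 1, and the groups compared alone 0 and 1. Hearts 1 and 3 left out gave 0 and 1, knockout PBS heart 3 with LCWE heart 2 left out 0 and 0, and numbers from 100 to under 200 gave 4 and 3985. Single libraries left out gave 0 to 4 and 0 to 2606. Under LCWE (1 gene, 0.00699% of those tested), the share of genes called was 0% with the stricter filter, 0.0559% with DESeq2, 0.0207% with knockout PBS heart 3 and LCWE heart 2 left out, 0% within numbers from 100 to under 200 and 0.944% within numbers under 100. Single libraries left out gave 0.00688% to 0.014%. The stricter filter, at least 5 CPM in 3 libraries, removed Mcm8, the 1 gene called, before testing. Its 0% was therefore fixed by the filter. In wild type (0 called), DESeq2 gave 1 gene, and numbers from 100 to under 200 gave 1 chaperone (Hsph1) and 1221 genes. For the interaction (0), DESeq2 gave 5 genes, numbers from 100 to under 200 gave 2 chaperones and 2230 genes, and single libraries left out gave 0 to 3 and 0 to 481. Apart from the stricter filter under LCWE, the cause of these changes was not tested. The restricted fits also hold fewer samples.

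Chaperones near 0 changed sign. In wild type, Hspa1b had -0.0088 with library totals, Hspa1a 0.059 and Hspb7 -0.032 with the range covariate, and Hspb7 -0.23 within numbers from 100 to under 200. With single libraries left out, Hspa1a ranged from -0.24 to 0.039, Hspa1b from -0.062 to 0.13, Dnajb1 from -0.010 to 0.12, Hspb1 from -0.19 to 0.034 and Hspb7 from -0.011 to 0.20. In knockout against wild type under LCWE, Hspb1 had 0.039 and Bag3 0.019 with library totals, Hspb1 0.046 with the range covariate, and Bag3 0.0091 with limma-voom. Without knockout PBS heart 3 and LCWE heart 2, Hspa1b had -0.15 and Hsp90aa1 -0.054. Numbers from 100 to under 200 gave Hspa8 0.073, Hsph1 0.55, Hspb1 0.10 and Bag3 0.31, and under 100 Hspa1b -0.012, Hsp90aa1 -0.088 and Hspb7 -0.048. With single libraries left out, Hspa1b ranged from -0.14 to 0.50, Hspb1 from -0.11 to 0.071, Hsp90aa1 from -0.054 to 0.23, Bag3 from -0.15 to 0.044 and Hspb7 from -0.030 to 0.20. The interaction turned above 0 for Hsph1 with the range covariate (0.095), without knockout PBS heart 3 (0.059) and within numbers from 100 to under 200 (1.54, called). It did so for Hsp90aa1 without heart 3 (0.097), without hearts 1 and 3 (0.11) and within that range (0.31). Without hearts 1 and 3 it also did so for Dnajb1 (0.087) and Hspb7 (0.13), and without heart 2 for Cryab (0.0074). In knockout against wild type under PBS, Hsph1 had -0.15 with the range covariate, -0.33 without heart 3 and -1.0 within that range. No direction reversed for a chaperone called with all libraries in the comparison concerned. No paired analysis was possible because the labels give no replicate numbers shared between groups.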

Other observations

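Genes outside the cytosolic heat shock system were also called lower after LCWE in the knockout, where 2.08% of all genes were called lower. Of 25 genes of endoplasmic reticulum chaperones and the unfolded protein response, 3 were called lower, with a median log2 fold change of -0.53 over the 25, against 0.01 over all genes. They were Dnajc3 at -0.84 ± 0.19, Herpud1 at -1.24 ± 0.33 and Ddit4 at -1.49 ± 0.30. Hspa5, the main Hsp70 of the endoplasmic reticulum, had 387 to 745 CPM in knockout LCWE hearts, against 848, 470 and 1818 CPM in knockout PBS hearts 1 to 3, and its log2 fold change of -0.99 ± 0.34 was not called. Knockout PBS hearts 1 and 3 lay above the LCWE range and heart 2 within it. The clock gene Cry1 was called lower, at -0.88 ± 0.22. Per2, a clock gene also reported to respond to heat shock in mouse cells, had 6.07 to 52.0 CPM after LCWE and 130, 26.0 and 95.7 CPM after PBS. Of 14 glucocorticoid-responsive genes 2 were called lower, Tsc22d3 at -1.07 ± 0.19 and Ddit4. Nr4a3, at -2.63 ± 0.65, was the 1 of 23 immediate early genes called lower. None of 31 proteasome genes was called in the knockout, with a median of -0.05. The lists were drawn up with earlier results known.

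Within wild-type hearts numbered from 100 to under 200, where Hsph1 was lower after LCWE, other lists also held called genes. Of 31 proteasome genes 8 were called higher and 1 lower (Psmd1). Of the 25 endoplasmic reticulum genes 4 were called lower there, Hsp90b1, Canx, Ddit4 and Sel1l. Over all genes, 5.21% were called higher and 3.07% lower (8.28% in either direction). With 1 heart of that range left out, 15 to 3143 genes were called in all, so these counts describe that fit only. The genes most correlated with Hsph1 over 19 libraries, picked after its pattern was seen, were P4ha1 (r = 0.94), Fam161b (0.92), Galm (0.90), Rgl3 (0.89) and Hspa4l (0.89).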
